A study of Mus musculus with 40 samples.

Results

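Cholesterol synthesis and its control were followed through 30 genes in mouse developing oligodendrocytes, the glial cells that go on to make myelin. The genes were taken by name from the deposited gene table of 39056 identifiers as sterol synthesis, sensing, transfer and efflux genes, all 30 were present, and all 30 had enough reads to be among the 15135 genes tested. They comprised 18 enzymes of sterol synthesis, 5 genes of the sensing machinery (Srebf1, Srebf2, Scap, Insig1 and Insig2), 2 further targets of that machinery (Stard4 and Lpin1), 3 genes under the liver X receptors (Abca1, Abcg1 and Mylip) and 2 genes of lysosomal cholesterol export (Npc1 and Npc2). RNA was sequenced from 40 libraries of wild-type C57BL/6 cells in 10 groups of 4. Oligodendrocyte progenitors had been immunopanned from cortices of pups 6 days old (another label gives 6 to 7 days and whole brain), passaged 2 times and left to differentiate for 12 to 14 h. The groups were untreated cells at 1, 8, 24 and 48 h, cells given 200 U/ml of interferon-gamma (IFN-gamma, a cytokine of T cells) for the same 4 times, and cells given thapsigargin for 1 or 8 h. Thapsigargin blocks the calcium pump of the endoplasmic reticulum (ER) and provokes ER stress. Its labelled dose was 200 uM, the labels name no vehicle, and they do not say whether the 4 libraries of a group came from separate cultures or animals, so the tests measure the spread between these libraries.

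Cholesterol is built from acetyl-CoA in the cytosol and ER by way of mevalonate, isoprenoids, squalene and lanosterol, and growing myelin takes up large amounts of it. The transcription factors SREBP-1 and SREBP-2 (genes Srebf1 and Srebf2) are held in the ER by the escort SCAP and the anchors INSIG1 and INSIG2 while sterols are plentiful, and are cut free in the Golgi to switch on the synthesis genes when sterols run low. The liver X receptors (LXR) respond to oxysterols in the opposite situation and switch on efflux pumps such as ABCA1 and ABCG1.

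Promoter sequences of 24 of the 30 genes were found in a RefSeq table (build GRCm38.p6), from 250 bases before to 50 after each start. The sequences below run 5′ to 3′ on the strand of the gene, lie before the start, and leave out bases in annotated exons of protein-coding genes. They were chosen because the genes carry the results that follow: Hmgcs1 had the highest level, Acat2 and Mvk were among the deepest falls under thapsigargin, Hsd17b7 and Insig1 were among the largest early rises, and Insig2 rose while most of the others fell. Capitals mark matches to the motifs searched on both strands. These were TCACNCCAC (an SREBP element), CCAAT (the NF-Y box, ATTGG on the other strand), CACGTG (an E-box), TGATGCAA (an ATF4/CHOP element) and the ER stress element, CCAAT followed after 9 bases by CCACG, which overlaps the NF-Y box.
Hmgcs1 (chr13:119690101-119690350, plus strand): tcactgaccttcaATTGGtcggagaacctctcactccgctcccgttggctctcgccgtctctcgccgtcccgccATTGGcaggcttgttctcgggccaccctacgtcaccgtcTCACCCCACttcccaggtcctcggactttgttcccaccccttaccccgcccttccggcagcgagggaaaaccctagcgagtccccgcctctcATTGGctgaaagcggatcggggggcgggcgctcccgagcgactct
Mvk (chr5:114444061-114444268, plus strand): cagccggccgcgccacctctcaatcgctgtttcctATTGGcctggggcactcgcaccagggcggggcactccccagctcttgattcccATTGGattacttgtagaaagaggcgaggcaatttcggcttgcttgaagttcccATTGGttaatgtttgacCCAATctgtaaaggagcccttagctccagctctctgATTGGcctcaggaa
Acat2 (chr17:12960748-12960975, minus strand): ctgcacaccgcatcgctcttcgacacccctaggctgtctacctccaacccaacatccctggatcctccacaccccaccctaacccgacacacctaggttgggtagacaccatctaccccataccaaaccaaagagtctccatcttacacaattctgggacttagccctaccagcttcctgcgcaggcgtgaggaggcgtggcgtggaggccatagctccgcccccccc
Hsd17b7 (chr1:169969242-169969455, minus strand): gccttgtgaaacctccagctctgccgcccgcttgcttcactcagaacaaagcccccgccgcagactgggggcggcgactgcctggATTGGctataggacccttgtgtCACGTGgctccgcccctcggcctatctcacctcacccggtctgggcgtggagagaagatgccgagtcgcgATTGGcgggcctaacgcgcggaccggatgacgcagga
Insig1 (chr5:28071162-28071362, plus strand): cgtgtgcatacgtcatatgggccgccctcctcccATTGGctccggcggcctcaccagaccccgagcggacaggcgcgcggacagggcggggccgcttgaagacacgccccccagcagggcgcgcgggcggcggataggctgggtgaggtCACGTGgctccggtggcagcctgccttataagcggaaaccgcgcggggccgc
Insig2, second listed start (chr1:121328025-121328274, minus strand): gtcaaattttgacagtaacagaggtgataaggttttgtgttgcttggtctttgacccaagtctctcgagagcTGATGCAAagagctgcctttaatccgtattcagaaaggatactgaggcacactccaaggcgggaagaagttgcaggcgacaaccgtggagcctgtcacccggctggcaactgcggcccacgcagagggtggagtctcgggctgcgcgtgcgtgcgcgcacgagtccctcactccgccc

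The CCAAT box was the motif these promoters had most in common. It was present for 20 of the 24 genes (83.3%) and for 14 of the 15 synthesis enzymes with a sequence (93.3%), against 41.1% of all 27025 genes in the table. A gene counts when any of its listed starts has a match. Counted by promoter, 21 of 32 (65.6%) held the box, against 37.4% of all promoters. Mvk held 5 copies, Hsd17b7 held 3 (the one nearest the start lies beyond the stretch printed), and Acat2 was the enzyme without one. The SREBP element in this strict spelling was found at 1 of the 24 genes, Hmgcs1, 137 bases before the start, and at 1.44% of all genes (1.24% of all 32851 promoters). An E-box was found at 6 of the 24 genes and at 8.09% of all genes (7.15% of promoters). The ATF4/CHOP element was found at 1, at the second start of Insig2, 178 bases before it, and at 1.03% of all genes (0.895% of promoters). The ER stress element was found at none of the 24 and at 0.137% of all genes (0.119% of promoters). The Insig2 window shares 183 bases with an exon of Gm37174, an unclassified transcript, and the Hsd17b7 window 47 with an exon of the antisense gene 3110045C21Rik. A match is a description of the letters and not evidence of binding.

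Depth ranged from 13165483 to 22651092 reads on genes per library. Replicates of each group differed beyond sampling noise in every one of 60 pairs. Known targets followed the labels: Ddit3, the ER stress factor CHOP, held 5.76 to 7.99 counts per 1000000 reads (CPM) in untreated libraries of 8 h and 519 to 582 CPM with thapsigargin, and Irf1, an interferon-induced factor, 23.8 to 26.4 CPM and 990.4 to 1062 CPM with IFN-gamma. All 10 markers of the oligodendrocyte lineage examined, among them Olig2 and Sox10, averaged at least 1 CPM in every group, while 6 of 8 microglial markers averaged under 1 CPM in each group. Other cell types were less clearly absent. In untreated cells of 1 h, 2 of 8 astrocyte and 3 of 8 neuronal markers averaged under 1 CPM. Their sums were 280 to 342 and 77.6 to 80.5 CPM, beside 6994 to 7422 CPM for the oligodendrocyte markers. Replicates 1 and 2 of every group bear the lower 20 library numbers and replicates 3 and 4 the upper 20. In 10 libraries (8 of IFN-gamma, 2 of thapsigargin) Y-linked levels were under 30 CPM, against at least 144 in the others. Xist, an RNA of female cells, held 319.5 to 729 CPM in those 10 and 0 to 250 CPM in the others. Ebp and Nsdhl lie on chromosome X. The part of cell sex was examined only through the settings on Y-linked level in the closing section. Reads on rRNA-like genes made up 28.3% of IFN-gamma 1 h replicate 2, at most 9.67% of any other library and 1.76% at the median. Counts of calls within each number range are given with the results or in the closing section.

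Read per kilobase of exon in untreated cells at 1 h, the levels spanned 3 orders of size. Hmgcs1, which makes HMG-CoA on the way to mevalonate, stood highest at 310.6 ± 39.9 CPM per kilobase (SD, n = 4, as for all levels). Acat2, the cytosolic thiolase that starts the pathway, followed at 114.6 ± 10.1, Insig1 at 105.4 ± 13.5 and Cyp51, the lanosterol demethylase, at 102.1 ± 14.0, and these 3 lay within 1 SD (14.0) of each other. The lowest were Insig2 at 3.23 ± 0.279, Mylip at 1.22 ± 0.143, Abca1 at 0.482 ± 0.162 and Abcg1 at 0.230 ± 0.0636, so the LXR genes were the faintest of the 30. All later levels are CPM per library without the length correction, and differences are log2 fold changes ± SE from edgeR's quasi-likelihood test, with p-values adjusted over all 15135 genes and a call at an adjusted p under 0.05.

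**Figure D1:**
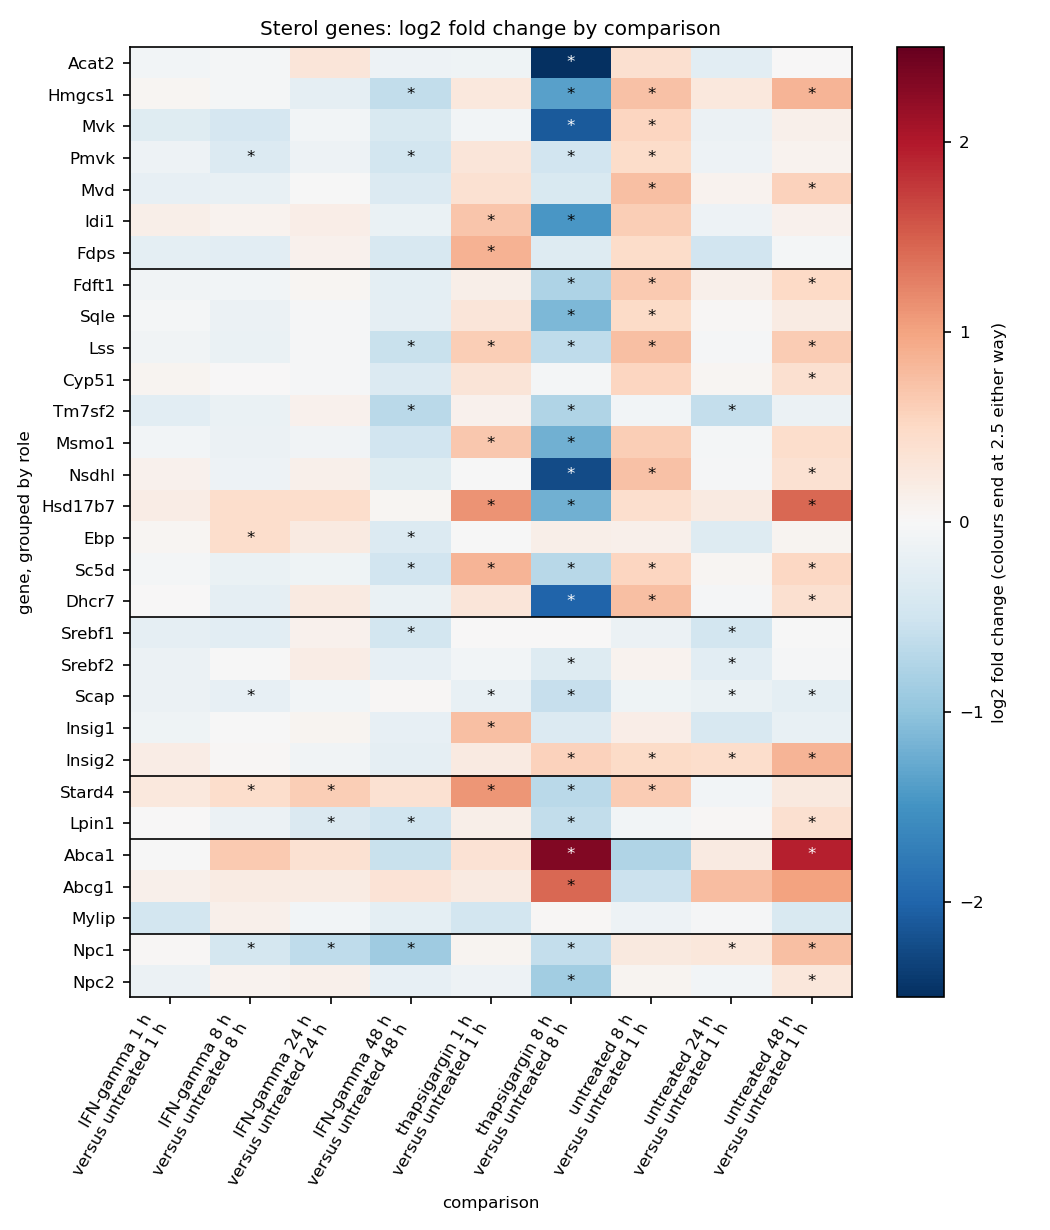
Log2 fold change of each gene (rows, grouped by role) in each comparison (columns), with red for higher, blue for lower and a star for an adjusted p under 0.05. The column of thapsigargin at 8 h is the bluest, with 20 genes called lower, while Abca1, Abcg1 and Insig2 are called higher there.

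Thapsigargin for 1 h raised part of the set. Against untreated cells of 1 h, 8 of the 30 genes were called higher and 1 lower, where 6.61% and 2.18% of all genes tested were. The 8 were 6 synthesis enzymes (Hsd17b7, Fdps, Sc5d, Idi1, Msmo1 and Lss), the cholesterol transfer protein gene Stard4 and Insig1. The median over the 30 genes was 0.24, against -0.02 over all genes tested. Libraries of the 2 groups did not overlap for the same 8 genes, where 10.5% of all genes were higher without overlap, and lower without overlap for Scap and Mylip (-0.45, adjusted p = 0.0942), where 7.63% were.

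Stard4, which codes for a carrier of cholesterol between membranes, had 73.1, 78.5, 62.6 and 69.6 CPM untreated and 160.4, 139, 116 and 199 CPM with thapsigargin. Every treated library lay above every untreated one, and the difference was 1.11 ± 0.17, adjusted p = 1.41e-05. Hsd17b7, a ketoreductase in the removal of the sterol C4 methyl groups, had 90.1, 87.6, 73.3 and 65.3 CPM untreated and 177, 145, 142 and 227 CPM treated. The difference was 1.13 ± 0.25, adjusted p = 0.00257. The treated libraries were all higher, and replicate 4 was the highest. Sc5d, the lathosterol oxidase, went from 129, 132, 104 and 108 CPM to 224, 189.96, 165 and 272 CPM (0.85 ± 0.16, adjusted p = 0.000289), again without overlap. Insig1, which codes for an ER anchor of SCAP and is itself a target of SREBP, went from 359.6, 362, 304 and 278 CPM to 604, 479.7, 430.1 and 674 CPM (0.75 ± 0.17, adjusted p = 0.00277). Its lowest treated library stood above its highest untreated one.

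Fdps, the farnesyl diphosphate synthase, had 70.002, 76.9, 63.1 and 48.5 CPM untreated and 134, 122, 86.1 and 129 CPM treated (0.86 ± 0.19, adjusted p = 0.00236). The groups did not overlap in the gene table, but in the isoform table summed per gene the difference was 0.24 and was not called (adjusted p = 0.685). Fdps shares 26.7% of its exon bases on the same strand with Gm43738, which averaged 0.00858 CPM, so the Fdps value is uncertain. The smaller rises were those of Idi1 (isopentenyl diphosphate isomerase, 0.68 ± 0.21, adjusted p = 0.0305), which had 95.9, 108, 97.2 and 80.8 CPM untreated and 177, 143, 115 and 179 CPM treated, Msmo1 (sterol C4 methyl oxidase, 0.67 ± 0.21, adjusted p = 0.0359) and Lss (lanosterol synthase, 0.61 ± 0.19, adjusted p = 0.0329). Each of these last 3 lost its call when thapsigargin replicate 1 or 4, or untreated replicate 3 or 4, was left out, which leaves 5 genes called higher. From the isoform table summed per gene, Idi1 gave 0.57 and was not called (edgeR, adjusted p = 0.0898).

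The first enzymes of the pathway were not called at 1 h. Acat2 was at 292 ± 25.7 CPM untreated and 270.4 ± 43.97 treated (-0.11, adjusted p = 0.744), Hmgcs1 at 1427 ± 183 and 1709.8 ± 188 (0.26, adjusted p = 0.419), and Mvk, the mevalonate kinase, at 95.7 ± 12.7 and 91.01 ± 15.8. Srebf1 (0.02) and Srebf2 (-0.07) were not called. Scap, the escort of SREBP, was the gene called lower, at -0.18 ± 0.06, adjusted p = 0.0387, and it lost that call in 7 of the fits that left out 1 library. In the lower 20 library numbers 1 of the 30 genes, Stard4, was called higher, with 2 libraries a group, and in the upper 20 it was 7. All 8 differences were positive in both ranges.

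**Figure D2:**
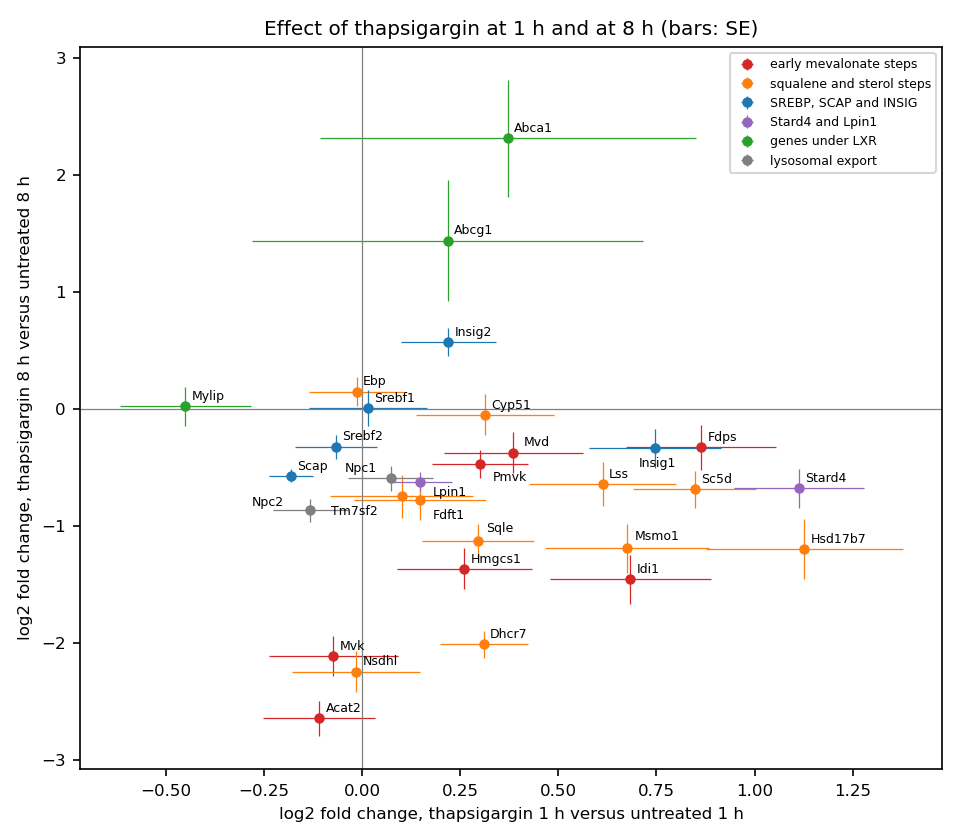
Log2 fold change of each gene under thapsigargin at 1 h (horizontal) against that at 8 h (vertical), with bars of 1 SE and colours by role. Stard4 and Hsd17b7 lie farthest to the right at 1.11 and 1.13, Acat2 lies lowest at -2.64, and Abca1 stands alone at the top at 2.31.

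By 8 h of thapsigargin most of the set was lower. Of the 30 genes, 20 were called lower and 3 higher than in untreated cells of 8 h, in a comparison where 31% of all genes were called lower and 29.6% higher. The median difference was -0.63 over the 30 genes and -0.95 over the 18 enzymes, against -0.01 over all genes. Of the enzymes, 14 were called lower and 0 higher, and 0 were higher at an unadjusted p under 0.05 in edgeR. For 16 of the 30 genes every treated library lay below every untreated one, where 28.9% of all genes did. The opposite held for 1, Insig2, where 27.8% of all genes were.

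The deepest fall was that of Acat2, with 454, 399, 383 and 306 CPM untreated and 75.96, 64.5, 51.6 and 54.5 CPM treated. The highest treated library lay far below the lowest untreated one, and the difference was -2.64 ± 0.15, adjusted p = 5.28e-17. Acat3, a close copy of Acat2 in the mouse, averaged under 1 CPM in every group. Mvk went from 169, 159, 123 and 103 CPM to 42.8, 29.3, 28.6 and 27.6 CPM (-2.11 ± 0.17, adjusted p = 8.01e-13), with no overlap although its untreated libraries were spread widely. Hmgcs1 fell from 2379 ± 311 to 923 ± 223 CPM, its 4 treated libraries holding 1158, 1069, 717 and 748 CPM and its untreated ones 2658, 2578, 2316 and 1967 CPM (-1.37 ± 0.17, adjusted p = 2.44e-08). Idi1 fell by a similar amount (-1.46 ± 0.21), from 157, 141, 166 and 122 CPM to 73.1, 64.8, 35.6 and 39.96 CPM. Pmvk, the phosphomevalonate kinase, fell less (-0.47 ± 0.12, adjusted p = 0.0012) and overlapped between the groups, and in the upper library numbers it was not called (-0.27, adjusted p = 0.13). Mvd, the decarboxylase after it (-0.37, adjusted p = 0.0698), and Fdps (-0.33, adjusted p = 0.138) did not pass the test.

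The steps from farnesyl diphosphate to cholesterol were just as uneven. Nsdhl, a C4 sterol dehydrogenase, went from 141, 139, 123 and 97.7 CPM to 32.8, 31.01, 19.5 and 22.05 CPM (-2.24 ± 0.17, adjusted p = 1.54e-13). Dhcr7, which makes cholesterol in the last step of one branch, went from 139.8, 131, 128 and 110.3 CPM to 37.04, 34.9, 25.6 and 28.5 CPM (-2.01 ± 0.12, adjusted p = 6.85e-17). Both were lower in every treated library. Sqle, the squalene epoxidase, had 527, 506, 484 and 381 CPM untreated and 271, 249, 171 and 178 CPM treated (-1.13 ± 0.14, adjusted p = 2.61e-08). Hsd17b7 (-1.20 ± 0.25), Msmo1 (-1.19 ± 0.21), Fdft1 (squalene synthase, -0.78 ± 0.17), Tm7sf2 (a sterol C14 reductase, -0.75 ± 0.19), Sc5d (-0.69 ± 0.16) and Lss (-0.64 ± 0.19) were called lower as well, Lss not within the lower library numbers (-0.64, adjusted p = 0.0576). Cyp51 did not follow them, with 747, 682, 674 and 514 CPM untreated and 759, 717, 513 and 538 CPM treated, groups that overlapped (-0.05, adjusted p = 0.825). Ebp, the sterol isomerase, was at 30.7 ± 3.74 and 34.05 ± 2.03 CPM and was not called either. Exons of some of these genes overlap other genes, and whether counting used strand is not given in the sources used here. Fdft1 shares 18.3% of its exon bases with Ctsb, which averaged 130 CPM, and Cyp51 3.76% with Akap9 at 191 CPM, both on the opposite strand, while Tm7sf2 shares 12.1% with Vps51 at 35.9 CPM on the same strand. Scap (13.2%, 5830462I19Rik), Hmgcs1 (12.1%, Gm48342), Idi1 (9.22%, Gm48574), Npc1 (4.52%, Rmc1 at 25.01 CPM) and Lss (3.53%, 4930483K19Rik) also share exon bases with a gene on the opposite strand. Srebf1 shares 1.93% of its exon bases with Rai1 at 34.3 CPM, also on the opposite strand. How far such reads enter the values of these genes was not tested.

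**Figure D3:**
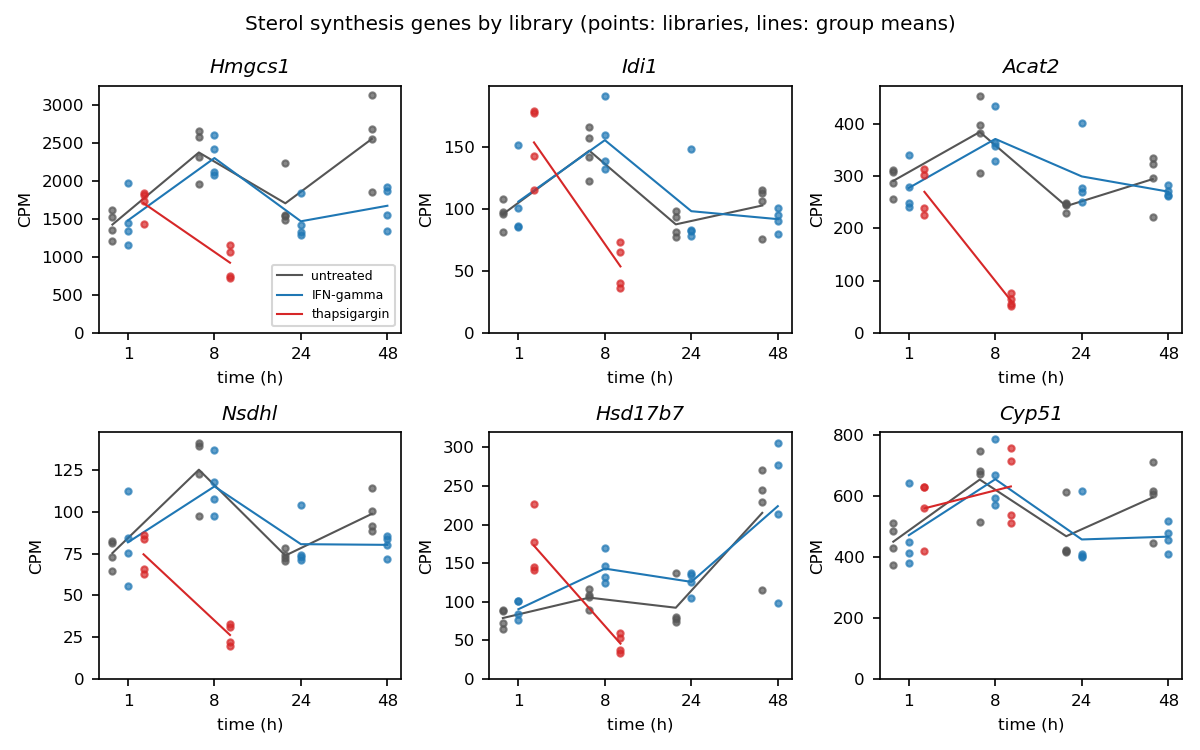
CPM of 6 synthesis genes (vertical axis, from 0) by time (horizontal axis, equal steps), with 1 point per library and lines through group means. In red, thapsigargin lowers Acat2, Nsdhl, Idi1, Hmgcs1 and Hsd17b7 at 8 h below every untreated library of that time, while the Cyp51 points overlap.

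Untreated cells had themselves moved up by 8 h, so the treated levels were also set beside untreated cells of 1 h. The summed level of the 18 enzymes was 4289 ± 512 CPM in untreated cells at 1 h, 6605 ± 1009 at 8 h, 5504 ± 797 after 1 h of thapsigargin and 3286 ± 694 after 8 h. This sum has no length correction, and Hmgcs1 was its largest single part, at 1764 CPM averaged over all 40 libraries. The 4 treated libraries of 8 h held 4061, 3676, 2618 and 2789 CPM, and those of untreated cells at 1 h held 4599, 4772, 4161 and 3626 CPM. The 2 sets overlapped between 3626 and 4061 CPM. Among the treated libraries, rRNA-like genes took 7.00% and 4.43% of reads in replicates 1 and 2, which had the higher sums, and 0.583% and 1.21% in replicates 3 and 4, and the part of this difference was not tested. Acat2 was clear of the untreated libraries of 1 h too, at 51.6 to 75.96 CPM against 256 to 312 CPM, and so were Mvk (27.6 to 42.8 against 77.1 to 106), Nsdhl (19.5 to 32.8 against 64.5 to 82.3) and Dhcr7 (25.6 to 37.04 against 70.6 to 81.2). These were the genes with the deepest falls, and not every gene called lower at 8 h was clear of those libraries. The treated mean of Stard4 at 8 h lay within the range of its untreated libraries of 1 h.

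**Figure D4:**
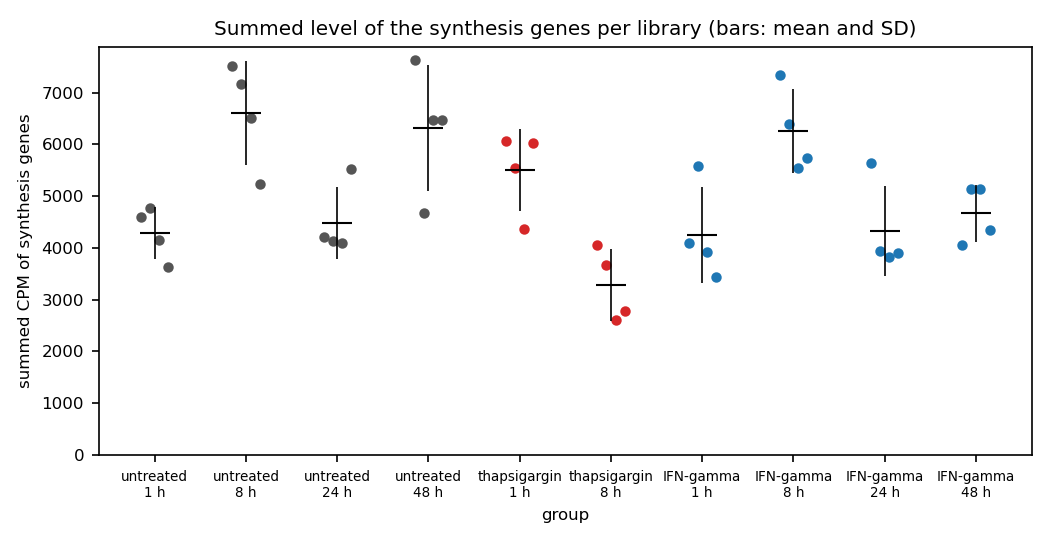
Summed CPM of the 18 synthesis enzymes (vertical axis, from 0) in each library by group (horizontal axis), with the mean and SD in black. Untreated cells average 6605 CPM at 8 h, thapsigargin cells 3286 CPM and IFN-gamma cells of 48 h 4670 CPM.

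The sensing genes split. Insig2 rose at 8 h of thapsigargin, from 13.5, 17.1, 16.1 and 15.6 CPM to 21.6, 22.04, 25.8 and 23.2 CPM (0.57 ± 0.12, adjusted p = 7.09e-05), and all treated libraries lay above the untreated ones. In the isoform table, transcript Insig2-201 made up 86.4% of the gene's estimated counts in untreated cells and 88.02% in treated cells, at 12.8 ± 2.15 and 17.7 ± 2.41 CPM. Scap had 160.3, 145, 142 and 140.3 CPM untreated and 101, 97.3, 99.3 and 98.4 CPM treated, a clean separation with little spread among the treated libraries (-0.57 ± 0.06, adjusted p = 9.17e-11). Srebf2 had 252, 221, 241 and 204 CPM untreated and 217, 195, 158 and 164 CPM treated, with overlap. It was called lower by a small amount (-0.32 ± 0.10, adjusted p = 0.0077) and lost the call without thapsigargin replicate 3 (adjusted p = 0.0658) or 4 (adjusted p = 0.0592) and in the lower library numbers (-0.21, adjusted p = 0.129). Insig1 had 427, 402, 367 and 273 CPM and 371, 329.7, 225 and 238 CPM, overlapping (-0.33, adjusted p = 0.0828). Srebf1 had 52.2, 50.05, 55.3 and 44.97 CPM untreated and 40.6, 38.3, 66.7 and 58.6 CPM treated, with 2 treated libraries below and 2 above all untreated ones (0.01, adjusted p = 0.967). The 2 high ones were replicates 3 and 4, of the upper library numbers. Of the further targets, Stard4 fell from 111 ± 17.8 to 68.97 ± 15.3 CPM (-0.68 ± 0.17) and Lpin1, a phosphatidate phosphatase, from 112 ± 5.09 to 72.8 ± 5.93 (-0.62 ± 0.08).

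The efflux pumps went the other way. Abca1, which loads cholesterol onto lipid-poor apolipoproteins, had 1.30, 2.04, 2.21 and 6.71 CPM untreated and 5.81, 6.94, 24.9 and 21.4 CPM at 8 h of thapsigargin (2.31 ± 0.50, adjusted p = 0.000147). The groups overlapped, because untreated replicate 4 exceeded thapsigargin replicate 1, and the 2 highest treated libraries were replicates 3 and 4. Within the lower library numbers the difference was 1.90 (adjusted p = 0.00473) and within the upper ones 2.39 (adjusted p = 7.7e-05). Abcg1, its partner in efflux, had 0.601, 0.977, 0.958 and 2.21 CPM and 1.26, 0.907, 6.44 and 4.13 CPM (1.44 ± 0.52, adjusted p = 0.0158), and its call came from the upper numbers (1.75, adjusted p = 0.00288) and not the lower (0.43, adjusted p = 0.497). It also lost the call without thapsigargin replicate 3 (adjusted p = 0.178) or untreated replicate 1 (adjusted p = 0.0618). Mylip, whose product marks lipoprotein receptors for degradation, had 3.21, 4.09, 3.90 and 3.21 CPM and 3.39, 3.74, 3.28 and 4.26 CPM and was not called. Both lysosomal genes fell: Npc2, the soluble carrier, from 146, 139.8, 115 and 123 CPM to 79.7, 67.5, 69.3 and 70.7 CPM (-0.87 ± 0.10, adjusted p = 1.63e-09), and Npc1, the membrane exporter, from 171, 186, 176 and 201 CPM to 108, 119, 134 and 126 CPM (-0.59 ± 0.11, adjusted p = 1.44e-05), neither with overlap.

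**Figure D5:**
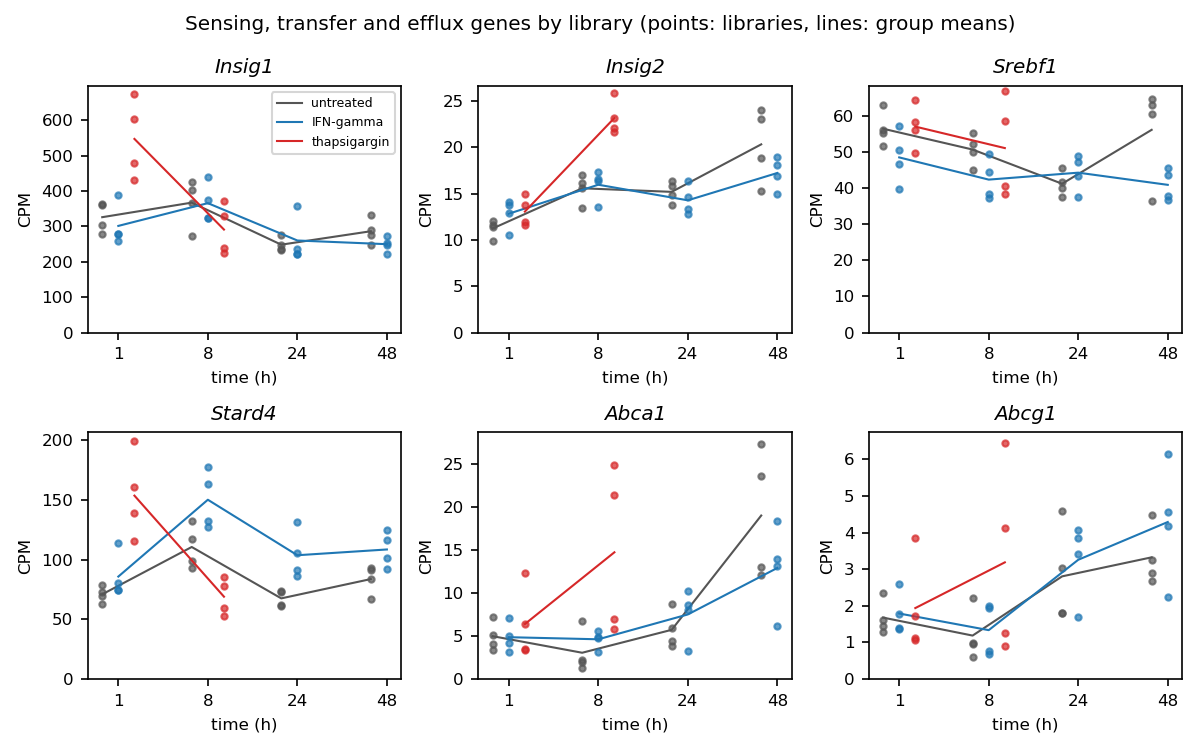
CPM of Insig1, Insig2, Srebf1, Stard4, Abca1 and Abcg1 (vertical axes, from 0) by time (horizontal axis, equal steps), with 1 point per library and lines through group means. Stard4 and Insig1 are high at 1 h of thapsigargin, Insig2 is high at 8 h, and Abca1 and Abcg1 show the widest spread among the 4 thapsigargin libraries of 8 h.

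Markers of cell types moved with these changes at 8 h. The summed level of the 10 oligodendrocyte markers was 3022 to 3752 CPM with thapsigargin and 7311 to 8901 CPM untreated, and 7 of the 10 were called lower and 0 higher, beside 31% and 29.6% of all genes. The 8 neuronal markers summed to 207 to 226 CPM and 73.2 to 82.7 CPM, with 2 and 3 of them under 1 CPM on average. The 8 astrocyte markers summed to 196 to 231 CPM and 279 to 368 CPM, and the 8 fibroblast markers to 7.85 to 10.96 CPM and 1.78 to 3.24 CPM, with 7 of these last 8 under 1 CPM in both groups. In bulk RNA, fewer cells of a type and less RNA per cell cannot be told apart, and the part these shifts have in the sterol genes was not tested.

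The effect of thapsigargin differed between the times for most of the set. The difference of effects (8 h minus 1 h) was called lower for 22 genes and higher for 1, where 24.8% and 22.7% of all genes were called, and its median was -0.89 against -0.01 over all genes. The comparisons at 1 h and 8 h share no library, but the labels do not say whether their libraries share cultures or animals. Y-linked levels of the thapsigargin replicates stood in the same order at both times (closing section), and the test treats all libraries as independent. The untreated libraries of 8 h also serve the IFN-gamma and untreated time comparisons given further on, so those are not independent of this one. The largest were Acat2 (-2.54 ± 0.21), Hsd17b7 (-2.32 ± 0.36), Dhcr7 (-2.32 ± 0.16), Nsdhl (-2.23 ± 0.24) and Idi1 (-2.14 ± 0.29). These 5 reached it differently. Hsd17b7 and Idi1 were called higher at 1 h and lower at 8 h, as were Msmo1, Lss, Sc5d and Stard4 outside the 5. Acat2 and Nsdhl, and Mvk outside the 5, stood near 0 at 1 h and were called lower at 8 h. Dhcr7 was not called at 1 h and was called lower at 8 h. All 7 enzymes up to Fdps were in the lower group, although Mvd and Fdps had not been called at 8 h. From the isoform table, Fdps gave -0.45 and was not called (adjusted p = 0.288). Abca1 was the gene called higher (1.94 ± 0.69, adjusted p = 0.0202), and it lost the call without untreated 8 h replicate 1 (adjusted p = 0.0546), untreated 1 h replicate 4 (0.0519) or thapsigargin 8 h replicate 3 (0.0663), while 3 genes were called higher without thapsigargin 1 h replicate 3. Cyp51 (-0.36, adjusted p = 0.237), Ebp, Srebf1, Srebf2, Insig2, Abcg1 and Mylip were not called.

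IFN-gamma changed few of these genes before 48 h. At 1 h, 0 of the 30 were called higher or lower, where 1.08% and 0.211% of all genes were, and DESeq2 called 0 too. At an unadjusted p under 0.05 in edgeR, 0 were higher and 2 lower, Scap and Mylip. At 8 h 2 were called higher and 3 lower (13.1% and 12.1% of all genes), and at 24 h 1 higher and 2 lower (12.6% and 10.5%), all near or under the shares of all genes. Ebp had 33.8, 33.3, 29.98 and 25.7 CPM untreated and 48.6, 41.5, 37.2 and 40.3 CPM at 8 h of IFN-gamma (0.45 ± 0.12, adjusted p = 0.0053), all treated libraries being higher. In the lower library numbers Ebp was not called (0.40, adjusted p = 0.124). Stard4 was 67.5 ± 6.66 CPM untreated and 104 ± 20.4 CPM at 24 h (0.62 ± 0.17, adjusted p = 0.00557), with 132, 106, 91.04 and 86.3 CPM in the treated libraries against 62.4, 61.2, 72.9 and 73.6 CPM. It was called in the lower library numbers (0.92, adjusted p = 0.00258) and not in the upper (0.27, adjusted p = 0.362). Its smaller rise at 8 h (0.44 ± 0.16, adjusted p = 0.0455), from 118, 99.2, 132 and 93.2 CPM to 178, 163, 132 and 128 CPM, was called too, but not in the upper library numbers (0.20, adjusted p = 0.568), and Pmvk (-0.34 ± 0.12) and Scap (-0.21 ± 0.06) were called lower at 8 h. The 2 higher calls of 8 h became 1 without untreated replicate 2 or 4 or IFN-gamma replicate 1 or 2, and the 3 lower calls became 1 without untreated replicate 1 or IFN-gamma replicate 2. The oligodendrocyte markers summed to 5175 to 5721 CPM at 8 h of IFN-gamma and the neuronal markers to 314 to 368 CPM, against 7311 to 8901 and 73.2 to 82.7 CPM untreated. At 24 h the oligodendrocyte markers summed to 6254 to 7788 CPM against 8980 to 11286, the neuronal ones to 173 to 237 against 69.2 to 77.6, and the astrocyte ones to 449 to 500.2 against 274 to 321 CPM. Their part was not tested.

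Npc1 fell with IFN-gamma at every time from 8 h. Untreated libraries held 171, 186, 176 and 201 CPM at 8 h, 169.8, 176, 187 and 218 CPM at 24 h and 251, 205, 292 and 288 CPM at 48 h. Those with IFN-gamma held 126, 135, 138 and 141 CPM, 104, 125, 124 and 134 CPM and 103, 146, 166 and 149 CPM, with no overlap at any of the 3 times. The differences were -0.44 ± 0.11, adjusted p = 0.00187, -0.63 ± 0.11, adjusted p = 3.11e-05 and -0.88 ± 0.11, adjusted p = 5.16e-08. Both library number ranges gave -0.86 at 48 h. Lpin1 had 119, 117, 115 and 129.7 CPM untreated at 24 h and 83.97, 99.2, 94.8 and 95.7 CPM with IFN-gamma (-0.37 ± 0.08, adjusted p = 0.000723). At 48 h it had 149.97, 136, 167 and 166 CPM untreated and 92.02, 108, 124 and 113 CPM with IFN-gamma (-0.50 ± 0.08, adjusted p = 5.28e-06), without overlap.

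At 48 h of IFN-gamma 9 of the 30 genes were called lower and 0 higher, where 19.9% and 16.9% of all genes were. DESeq2 gave 9 and 0 as well, and 1 gene was higher at an unadjusted p under 0.05 in edgeR. The median was -0.32 over the 30 genes and -0.0021 over all genes tested. The 9 included 6 enzymes. Tm7sf2 had 98.95, 51.02, 94.2 and 89.3 CPM untreated and 48.9, 52.4, 60.4 and 47.9 CPM treated (-0.67 ± 0.19, adjusted p = 0.00453), overlapping through untreated replicate 2. Hmgcs1 had 3136, 1851, 2686 and 2559 CPM and 1349, 1929, 1871 and 1554 CPM (-0.61 ± 0.17, adjusted p = 0.00525), overlapping through the same library. Lss (-0.55 ± 0.19), Sc5d (-0.47 ± 0.16), Pmvk (-0.46 ± 0.12), Ebp (-0.33 ± 0.12) and Srebf1 (-0.46 ± 0.15) completed the count with Npc1 and Lpin1. It was 16 without untreated replicate 2, whose summed enzyme level was 4674 CPM against 6474 to 7632 in the other 3, and 5 without IFN-gamma replicate 1. It was 4 without the libraries of low Y-linked level, where Npc1, Lpin1, Pmvk and Tm7sf2 kept their calls. That setting leaves 2 IFN-gamma libraries of 48 h, and the 5 genes that lost the call had differences of -0.54 (Hmgcs1), -0.51 (Lss), -0.36 (Ebp), -0.44 (Sc5d) and -0.45 (Srebf1). In the lower library numbers 3 of the 9, Npc1, Lpin1 and Pmvk, were called, and Pmvk was not called in the upper (-0.29, adjusted p = 0.143). The oligodendrocyte markers summed to 6795 to 10446 CPM with IFN-gamma and 11009 to 19544 CPM untreated. The neuronal markers summed to 161 to 223 against 78.4 to 92.7 CPM and the fibroblast markers to 12.3 to 14.2 against 3.80 to 5.92 CPM, with 6 of these last 8 under 1 CPM. The part of these markers in the differences was not tested. The summed enzyme level at 48 h was 4670 ± 556 CPM with IFN-gamma and 6315 ± 1222 CPM untreated. In untreated cells of 1 h it was 4289 ± 512 CPM, so the calls are against a raised untreated level. At 48 h Ebp had 31.2, 21.3, 30.7 and 35.3 CPM untreated and 23.9, 19.96, 24.2 and 25.8 CPM with IFN-gamma. The effect at 48 h was lower than that at 8 h for Ebp (-0.78 ± 0.17, adjusted p = 0.00206), Npc1 (-0.44 ± 0.15, adjusted p = 0.0444) and Lpin1 (-0.35 ± 0.11, adjusted p = 0.0279) and higher for Scap (0.23 ± 0.08, adjusted p = 0.0408), a count of 3 and 1 where 9.83% and 7.2% of all genes were called. The 3 became 7 without untreated 48 h replicate 2 and 1 without IFN-gamma 48 h replicate 1, untreated 8 h replicate 3 or untreated 48 h replicate 3 or 4, and Scap kept its call in 5 of the 16 fits that left out 1 library.

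Untreated cells moved along their own course. At 8 h 12 of the 30 genes were higher than at 1 h and 0 lower (4.77% and 2.16% of all genes), at 24 h 2 higher and 4 lower (13.9% and 14.4%), and at 48 h 14 higher and 1 lower (31.9% and 30.4%). At 8 h DESeq2 called 15 higher and 0 lower, and 0 were lower at an unadjusted p under 0.05 in edgeR. Of the 12 at 8 h, 10 were enzymes: Lss went from 405, 404, 361 and 314 CPM to 707, 701, 622 and 483 CPM (0.76 ± 0.19, adjusted p = 0.00959), and Mvd from 92.2, 102, 88.8 and 72.04 CPM to 181, 162, 141 and 115 CPM (0.75 ± 0.18, adjusted p = 0.00679). Dhcr7 went from 81.2, 74.8, 77.4 and 70.6 CPM to 139.8, 131, 128 and 110.3 CPM (0.74 ± 0.11, adjusted p = 3.95e-05). All 3 were higher in every library of 8 h. The other 9 were Hmgcs1 (0.74), Nsdhl (0.73), Fdft1 (0.66), Stard4 (0.64), Sc5d (0.54), Mvk (0.53), Sqle (0.49), Insig2 (0.47) and Pmvk (0.46). With 2 libraries a group, 2 of these genes were called in the lower library numbers and 3 in the upper. By 24 h the summed enzyme level was 4488 ± 698 CPM, near that of 1 h. Insig2 and Npc1 (0.29) were called higher than at 1 h and Tm7sf2 (-0.59), Srebf1 (-0.45), Srebf2 (-0.27) and Scap lower, and the 4 lower calls fell to between 0 and 3 when single libraries were left out. At 48 h the largest differences from 1 h were those of Abca1, from 4.10, 3.44, 5.16 and 7.28 CPM to 12.1, 13.1, 23.6 and 27.4 CPM (1.94 ± 0.47, adjusted p = 0.000519), and Hsd17b7, from 79.1 ± 11.8 to 215 ± 68.9 CPM (1.44 ± 0.25, adjusted p = 8.01e-06). Hmgcs1 (0.84), Npc1 (0.75), Lss (0.64), Mvd (0.57), Sc5d (0.51), Fdft1 (0.50), Cyp51 (0.40), Nsdhl (0.39), Dhcr7 (0.39), Lpin1 (0.39) and Npc2 (0.29) were higher as well. The oligodendrocyte markers summed to 6994 to 7422 CPM at 1 h, 7311 to 8901 at 8 h, 8980 to 11286 at 24 h and 11009 to 19544 CPM at 48 h, and their part in these rises was not tested. Insig2 was higher than at 1 h at all 3 later times (0.47, 0.44 and 0.85), and Scap was lower at 24 h (-0.17) and 48 h (-0.24).

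Neighbouring lipid pathways were read from lists of other genes. Of 15 genes of fatty acid synthesis and desaturation, mostly targets of SREBP-1, 11 were called lower and 1 higher at 8 h of thapsigargin (31% and 29.6% of all genes), with a median of -0.68. Acly, which supplies cytosolic acetyl-CoA to both pathways, held 838 to 1039 CPM untreated and 320.1 to 358 CPM treated (-1.52 ± 0.09). Aacs (-1.35 ± 0.15) and the desaturase genes Fads2 (-1.27 ± 0.07) and Scd1 (-1.05 ± 0.14) came next. Mid1ip1 was the one called higher (0.90 ± 0.12). At 1 h edgeR called 0 of these 15, with 1 higher and 0 lower at an unadjusted p under 0.05, and DESeq2 called 1 higher. At 48 h of IFN-gamma 8 were lower and 0 higher (19.9% and 16.9% of all genes, 9 and 0 by DESeq2, 0 higher at an unadjusted p under 0.05 in edgeR), led by Scd2 (-0.69 ± 0.11) and Slc25a1, the citrate carrier (-0.63 ± 0.11).

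Of 8 genes for the proteases and degradation factors around SREBP, 3 were higher and 0 lower at 8 h of thapsigargin, by edgeR and by DESeq2, beside 29.6% and 31% of all genes, and 0 were lower at an unadjusted p under 0.05. The largest of the 3 differences was that of Mbtps2, the site-2 protease (0.75 ± 0.09). Among 10 genes for LXR, its partner RXR and further targets, 3 were higher and 3 lower, near the shares of all genes (29.6% and 31%). Nr1h3, the gene of LXR alpha, was faint, with 0.401, 0.622, 0.958 and 0.286 CPM untreated and 1.26, 1.65, 1.48 and 1.90 CPM treated (1.48 ± 0.41, adjusted p = 0.00209), and Scarb1, a lipoprotein receptor, fell (-1.23 ± 0.13). Of 15 tested genes for sterol storage, transfer and uptake, 6 were higher and 3 lower (29.6% and 31% of all genes). Vldlr, a lipoprotein receptor, went from 78.7, 78.6, 88.7 and 95.2 CPM to 388, 422, 383 and 409 CPM (2.23 ± 0.17, adjusted p = 5.95e-14), without overlap. Osbp, an oxysterol-binding carrier, held 83.7 to 91.3 CPM and 246 to 265 CPM (1.54 ± 0.04), while Soat1, which esterifies cholesterol, fell (-1.22 ± 0.08). Of 9 genes on side branches of the mevalonate pathway, 3 were higher and 3 lower, again near the shares of all genes (29.6% and 31%). Nus1 (1.81 ± 0.10) and Dhdds (0.85 ± 0.06), the subunits of the dolichol-making enzyme, were both called higher.

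With IFN-gamma the sterol-handling genes gave 3 higher and 5 lower of 15 at 8 h (13.1% and 12.1% of all genes). Ch25h, which makes the oxysterol 25-hydroxycholesterol, had 0 reads in all 4 untreated libraries of 8 h and 1.11, 1.63, 0.882 and 1.16 CPM with IFN-gamma, a low level. Nr1h2, the gene of LXR beta, went from 29.4, 32.6, 28.3 and 27.9 CPM to 50.9, 49.9, 56.6 and 54.7 CPM (0.84 ± 0.09, adjusted p = 3.82e-09), without overlap. Plin2, a lipid droplet coat protein gene, was 1.47 to 5.61 CPM untreated and 8.60 to 11.7 CPM at 48 h (1.74 ± 0.24, adjusted p = 5.71e-07). Cyp46a1, the cholesterol 24-hydroxylase, was 26.2, 7.64, 29.9 and 32.3 CPM untreated and 3.21, 5.80, 5.79 and 5.95 CPM at 48 h (-2.21 ± 0.27, adjusted p = 3.76e-08), and untreated replicate 2 was again the low one of its group.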

How the data were processed

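RNA-seq of 40 libraries in 10 groups of 4 was read from the authors' deposited table of read counts per gene (39056 identifiers) and from their deposited table of estimated counts per transcript, which were summed per gene and rounded. The submitters' processing notes name STAR, featureCounts, kallisto and edgeR without roles. No build, annotation or strand setting was given in the sources used here. Symbols and exon lengths came from GENCODE M21, where 38872 gene identifiers and 112029 of 112588 transcripts matched, and promoters from RefSeq (GRCm38.p6).

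Counts were filtered with filterByExpr, scaled by TMM and fitted with edgeR 4.0.16 (R 4.3.3, limma 3.58.1) with 1 mean per group over all 40 libraries (30 residual degrees of freedom). Quasi-likelihood tests were adjusted by Benjamini-Hochberg over 15135 genes, with a call at an adjusted p under 0.05. Standard errors were the absolute log2 fold change over the square root of F, with a prior count of 0.125. CPM used library sizes scaled by TMM. The scripts were tested on simulated data.

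The genes and lists were chosen with earlier results of these data known. All 30 genes are accounted for. Libraries are given one by one for the 5 genes called with the largest differences in each thapsigargin comparison, the 3 in each IFN-gamma comparison and in untreated cells at 8 h against 1 h, and for a fixed set of sensing, efflux and lysosomal genes, and up to 4 genes are named from each other list. Values of some listed genes are not reported here. Alternatives were DESeq2 size factors (RLE), DESeq2 1.42.0, no filter, a fit on the compared groups, a block for or restriction to the lower or upper 20 library numbers, the isoform table, Y-linked level as a covariate and leaving out each library. Leaving out the libraries of low Y-linked level was chosen after seeing the data.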

Additional observations from a re-analysis of the deposited data

Results flagged for a closer look

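In groups of 4 libraries, the highest or lowest log2 level was compared with the other 3. It stood apart by more than Dixon's 95% limit in 24 of 300 groups (8%), where chance flags about 1 in 20 independent groups. These groups are not independent, because the same library can stand apart for many genes, so the shares are not directly comparable. IFN-gamma 24 h replicate 1 was the high one for 12 genes: Mvd at 130.4 CPM, Idi1 at 148.5, Fdft1 at 307.6, Sqle at 436.4, Lss at 474.8, Cyp51 at 616.5, Tm7sf2 at 96.63, Msmo1 at 398.5, Nsdhl at 104, Sc5d at 148.9, Dhcr7 at 104.2 and Insig1 at 358.4 CPM. Untreated 24 h replicate 4 was the high one for Hmgcs1 (2242 CPM), Lss (470 CPM), Cyp51 (613.6 CPM) and Hsd17b7 (138 CPM). Untreated 48 h replicate 2 was the low one for Tm7sf2 (51.02 CPM), Srebf1 (36.41 CPM) and Srebf2 (184.5 CPM). Thapsigargin 8 h replicate 1 was the high one for Mvk (42.75 CPM) and Mvd (137.9 CPM). The other 3 were Sc5d in untreated 8 h replicate 4 (131 CPM), Dhcr7 in thapsigargin 1 h replicate 3 (79.17 CPM) and Srebf2 in IFN-gamma 48 h replicate 4 (169.9 CPM).

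The log2 effect of thapsigargin differed between 8 h and 1 h by the interaction test (adjusted p under 0.05, edgeR) for 23 genes. Among the early enzymes the difference was -2.535 for Acat2, -1.627 for Hmgcs1, -2.036 for Mvk, -0.7703 for Pmvk, -0.7578 for Mvd, -2.139 for Idi1 and -1.192 for Fdps. Among the later ones it was -0.9251 for Fdft1, -1.421 for Sqle, -1.255 for Lss, -0.8489 for Tm7sf2, -1.866 for Msmo1, -2.229 for Nsdhl, -2.323 for Hsd17b7, -1.535 for Sc5d and -2.322 for Dhcr7. It was -0.3911 for Scap, -1.082 for Insig1, -1.792 for Stard4, -0.7689 for Lpin1, -0.6653 for Npc1, -0.7354 for Npc2 and 1.94 for Abca1. The effect of IFN-gamma differed between 48 h and 8 h by -0.7787 for Ebp, 0.2325 for Scap, -0.3543 for Lpin1 and -0.4373 for Npc1.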

How the results depend on the processing

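No paired analysis was run, because the labels give the groups no shared replicate numbers. Y-linked levels were 0.656 to 1.15 CPM in IFN-gamma replicate 3 and 290.3 to 324 CPM in replicate 4 at all 4 times. Untreated replicate 3 held 175 to 424 CPM, so IFN-gamma and untreated libraries of that number were not alike. Those of replicate 4 were alike at 1, 8 and 24 h, where the untreated libraries held 275, 316 and 331 CPM. Xist was at most 0.805 CPM in both groups of replicate 4 at these times. At 48 h untreated replicate 4 held 258 CPM, with Xist at 135 CPM. Whether such libraries share an origin was not tested. With RLE size factors, DESeq2 or the block for library number range, each of the 109 calls of single genes among the 30 was kept. Over all settings 1921 repeats of these calls kept their side of the threshold, 257 lost it and 0 changed direction.

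Counts of genes called that moved by over 1.5 times were as follows. For thapsigargin at 1 h, the 8 higher were 1 in the lower library numbers, and the 1 lower was 0 without the filter, with only the compared groups, in either number range and from the isoform table. For the difference of thapsigargin effects, the 1 higher was 2 with only the compared groups. For IFN-gamma at 8 h, the 2 higher were 1 in either number range, from the isoform table, with the Y-linked covariate and without the libraries of low Y-linked level, and the 3 lower were 1 without the filter, in the upper numbers and from the isoform table. At 24 h the 1 higher was 0 in the upper numbers and without the libraries of low Y-linked level. At 48 h the 9 lower were 5 with only the compared groups, 3 in the lower numbers and 4 without the libraries of low Y-linked level. For the difference of IFN-gamma effects, the 1 higher was 0 without the filter, with only the compared groups, in either number range, from the isoform table and without the libraries of low Y-linked level. Its 3 lower were 1 without the filter, with only the compared groups, from the isoform table and without the libraries of low Y-linked level, and 0 in the lower numbers. For untreated cells at 8 h, the 12 higher were 2 in the lower and 3 in the upper numbers. At 24 h the 2 higher were 1 without the filter and from the isoform table and 0 in the lower numbers, and the 4 lower were 2 without the filter, 8 with only the compared groups, 7 with the block for library number range, 0 in the lower numbers, 1 in the upper and 1 from the isoform table. At 48 h the 14 higher were 6 in the lower numbers, and the 1 lower was 2 with the block and 0 from the isoform table.

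Leaving out each library in turn gave 5 to 9 genes higher and 0 to 1 lower for thapsigargin at 1 h, and 2 to 3 higher and 19 to 23 lower at 8 h. The difference of thapsigargin effects gave 0 to 3 higher and 22 to 22 lower. IFN-gamma gave 0 to 0 in both directions at 1 h, 1 to 2 higher and 1 to 4 lower at 8 h, 1 to 1 higher and 2 to 2 lower at 24 h, and 0 to 0 higher and 5 to 16 lower at 48 h. The difference of IFN-gamma effects gave 0 to 1 higher and 1 to 7 lower. Untreated cells gave 8 to 15 higher and 0 to 0 lower at 8 h, 1 to 2 higher and 0 to 3 lower at 24 h, and 12 to 15 higher and 1 to 2 lower at 48 h. At 24 h the higher count was 1 without untreated 1 h replicate 1, 2 or 3 or 24 h replicate 4, and the lower count was 0 without untreated 1 h replicate 3 or 24 h replicate 3, 1 without 1 h replicate 1 or 24 h replicate 2, and 2 without 1 h replicate 2 or 24 h replicate 1 or 4. At 48 h the lower count was 2 without untreated 48 h replicate 2.

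A number range holds 2 libraries a group, so fewer calls there come with fewer samples. The low read counts of Abca1, Abcg1 and Nr1h3 limit the precision of their levels.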
